A study of Mus musculus with 11 samples.

Results

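Guanylate-binding proteins (GBPs) Gbp2, Gbp3, Gbp5 and Gbp7, immunity-related GTPases (IRGs) Irgm1, Igtp and Iigp1, and the transcription factor Irf1 were followed in transduced mouse CD4 T cells, with FoxP3 mutants, intact FoxP3 or an empty vector. Members were found by taking each probe set that the array platform's annotation pairs with exactly 1 of these 8 symbols. This gave 10 probe sets of 7 genes, out of 45101 probe sets in the table, of which 34945 tested ones were paired with exactly 1 of 18193 genes. Gbp2, Gbp7 and Iigp1 had 2 probe sets each, and Gbp5 had none paired with it alone.

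The study measured RNA on Affymetrix arrays, 1 array per sample and 11 in all, to set forkhead-domain mutants of FoxP3 beside the intact protein. FoxP3 is the transcription factor that specifies regulatory T cells, and both mutations are known from IPEX, the autoimmune disease that follows loss of FoxP3 function. All cells started as naive CD4+CD25-CD45RBhigh T cells of BALB/cA mice, from lymph nodes and spleen. They were activated with anti-CD3e at 0.5 µg/ml, IL-2 at 10 ng/ml and syngeneic spleen cells, which were freed of T cells and given 20 Gy of radiation. Retrovirus was added after 24 h, and GFP-high CD4+ cells were collected by sorting on day 7. The retrovirus carried R397W FoxP3 (2 arrays), A384T FoxP3 (3 arrays), WT FoxP3 (3 arrays) or, in the mock group, the MIGR1 vector with no FoxP3 insert (3 arrays). The mouse FoxP3 was thus brought in by a retroviral vector in activated conventional T cells, and the mock cells shared the activation, the vector and the sort. Whether the arrays of 1 group stand for separate animals or cultures is not in the labels, so each p-value reflects a spread between arrays that may be technical.

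GBPs and IRGs are GTPases that interferons, above all interferon-gamma, induce in many cell types. GBPs gather on membranes of intracellular pathogens and their vacuoles and open them to cytosolic sensing. Among IRGs, Iigp1 (Irga6) is an effector that acts on such vacuoles. Irgm1 and Igtp (Irgm3) are regulators of the IRGM class, which keep effectors from acting on the cell's own membranes. Interferon-gamma signals through its receptor and JAK kinases to GAS elements in promoters, and IRF1 binds interferon-stimulated response elements (ISREs) in the promoters of GBP and IRG genes. In T cells Irgm1 is known in mice for its part in survival after activation.

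Promoters were read from RefSeq (build GRCm38.p6), and those of 4 members, Gbp3, Gbp7, Gbp2 and Irgm1, are shown as examples. All 4 hold letters of these elements, and so do the windows of Igtp and Irf1, which are not shown. Each line gives the 250 bases before the annotated start, 5′ to 3′ on the gene's strand, with motif matches in capitals. The windows are chr3:142559794-142560043 (plus strand) for Gbp3, chr3:142530086-142530335 (plus strand) for Gbp7, chr3:142620413-142620662 (plus strand) for Gbp2 and chr11:48871421-48871670 (minus strand) for Irgm1.
Gbp3: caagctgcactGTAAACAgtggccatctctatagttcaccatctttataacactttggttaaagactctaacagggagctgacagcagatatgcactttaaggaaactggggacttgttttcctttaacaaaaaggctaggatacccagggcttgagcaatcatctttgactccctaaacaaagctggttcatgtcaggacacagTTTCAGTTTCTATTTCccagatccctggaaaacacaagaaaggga
Gbp7: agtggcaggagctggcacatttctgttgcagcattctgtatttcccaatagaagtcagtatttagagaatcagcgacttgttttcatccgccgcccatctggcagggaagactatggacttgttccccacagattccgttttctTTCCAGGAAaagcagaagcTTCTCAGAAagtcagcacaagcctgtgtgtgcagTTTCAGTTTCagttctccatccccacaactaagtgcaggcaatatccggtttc
Gbp2: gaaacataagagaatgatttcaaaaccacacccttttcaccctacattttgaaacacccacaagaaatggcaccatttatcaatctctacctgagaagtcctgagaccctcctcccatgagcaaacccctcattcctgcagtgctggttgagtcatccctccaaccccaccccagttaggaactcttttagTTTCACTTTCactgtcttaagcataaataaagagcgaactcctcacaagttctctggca
Irgm1: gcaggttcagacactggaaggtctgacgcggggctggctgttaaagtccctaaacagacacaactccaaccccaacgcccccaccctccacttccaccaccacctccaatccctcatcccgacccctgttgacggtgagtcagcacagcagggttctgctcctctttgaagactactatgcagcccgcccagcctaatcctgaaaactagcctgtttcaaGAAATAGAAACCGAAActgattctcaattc

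The motifs searched on both strands were GAAA, any 2 bases and GAAA again for the ISRE, TTCNNNGAA for GAS, which is its own reverse complement, and GTAAACA for forkhead factors. ISRE letters stood in 5 of the 6 measured members with a window, namely Gbp3, Gbp7, Gbp2, Irgm1 and Igtp, against 2.98% of all 32851 windows of 27025 genes. The member count is of genes with a match in any of their windows, whereas the share is of single windows. The Gbp3 window held 2 overlapping ISRE matches, at -45 to -36 and -39 to -30 from the start, and the forkhead letters at -239 to -233 (3.17% of all windows). Gbp7 held an ISRE match at -53 to -44 and 2 GAS matches, at -106 to -98 and -87 to -79. Any GAS match, single or repeated, stood in 7.02% of all windows. In Gbp2 the only match was an ISRE at -59 to -50. Irgm1 held 2 overlapping ISRE matches, at -30 to -21 and -24 to -15. Igtp had an ISRE at -34 to -25 beside a GAS at -45 to -37, and the Irf1 window held GAS letters at -90 to -82 and no ISRE letters. Gbp3 and Irf1 each had a further annotated start, whose window had 0 matches. On chromosome 3 the genes lie side by side in the order Gbp5, Gbp7, Gbp3, Gbp2b, Gbp2, whereas Irgm1, Igtp and Irf1 are on chromosome 11 and Iigp1 on chromosome 18. A match describes letters only and does not show that a factor binds there.

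**Figure D1:**
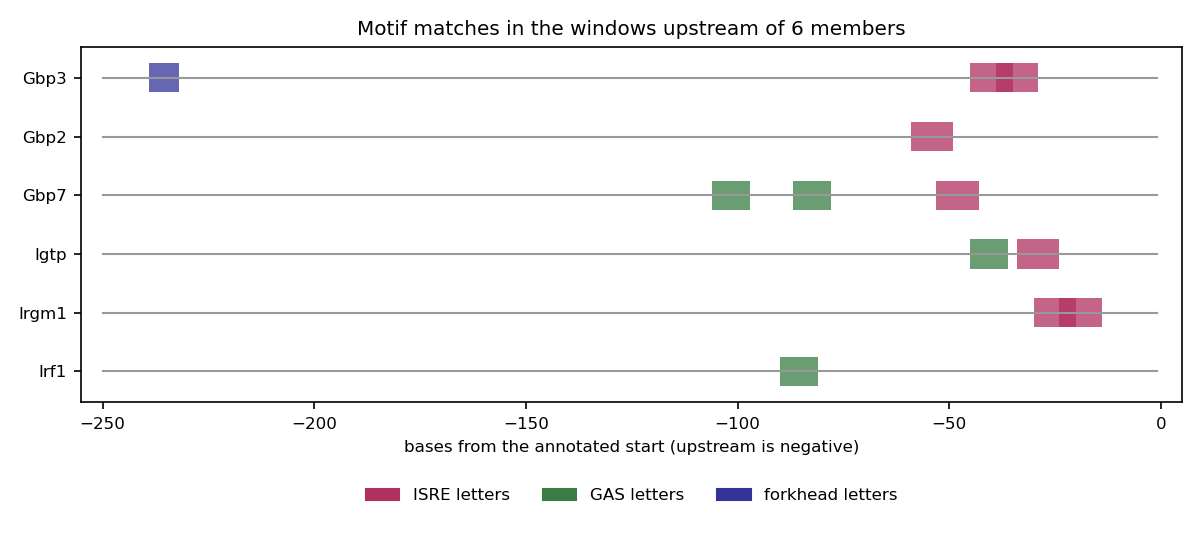
Matches to the ISRE, GAS and forkhead letters in the 250 bases before the annotated start of 6 members, with distance from the start in bases on the x axis and 1 line per gene. Gbp3 and Irgm1 each hold 2 overlapping ISRE matches, and Irf1 is the line with no ISRE match.

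The deposited values were log2 values relative to the mock median of each probe set, so no expression level is left and no probe set can be compared in level with another. The medians of the 11 arrays lay between -0.016 and 0.0022 on this scale. The Foxp3 probe set did not pass the test in any group (WT minus mock 0.04 ± 0.15, SE, limma adjusted p = 0.976), and no source used here says where its probes lie relative to the transduced sequence, so it does not check the labels. The level of T cell genes cannot be checked either, because a mock median of 0 carries no level. Of 7 such genes measured, 1 was higher and 1 lower in A384T over mock, and 1 and 1 in WT over mock. The counts alone do not say that these were the same genes. The lowest difference in this list was -0.96 with A384T and -0.47 with WT. Of 30 measured marker genes of B cells, macrophages, dendritic cells, CD8 T cells and NK cells, 0 were called in R397W over mock, 1 (Adgre1, a macrophage receptor, -1.13 ± 0.19, adjusted p = 0.0131) in A384T over mock and 0 in WT over mock. The median of each such marker list lay between -0.089 and 0.012 on R397W arrays, between -0.14 and 0.13 on A384T arrays, between -0.19 and 0.0072 on WT arrays and between 0 and 0.0072 on mock arrays. In such bulk RNA, fewer cells of a type and less RNA per cell cannot be told apart.

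In cells with WT FoxP3, Gbp2, Gbp3, Gbp7 and the IRG gene Iigp1 rose relative to mock cells. Irgm1, at -0.998 on the log2 scale, missed the threshold (limma adjusted p = 0.0625). It was called lower once the fit included the array number (adjusted p = 0.0229). Irf1, at -0.01, passed in neither fit. Gbp3 had the largest difference, 8.03-fold, followed by Iigp1 at 1 of its probe sets (3.70-fold), Gbp7 (2.97-fold and 2.70-fold) and Gbp2 (2.76-fold and 2.64-fold). Gbp2, Gbp3, Gbp7 and Iigp1 rose with A384T FoxP3 too, where Iigp1 had the largest difference (6.42-fold) and Gbp3 came next (4.31-fold). With R397W FoxP3 no member differed from mock by the test.

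Of the 10 member probe sets, 6 were called higher and 0 lower in WT over mock (limma, adjusted p under 0.05), where 2.66% of all 45037 probe sets tested were called and 1.49% were called higher. A fit with the array number as a term, the blocked fit, called 7 higher and 1 lower, among 7.63% of all. The median difference was 1.42 over the members and -0.013 over all probe sets. In A384T over mock 7 were called higher and 0 lower (background 2.17%, 1.25% higher) and 8 with the block (7.33%), with a median of 1.19 against -0.0067 over all probe sets. In R397W over mock 0 were called, as were 0 of all probe sets (0%), with an unadjusted p under 0.05 at 0 members and at 829 of all. The 3 comparisons share the mock arrays, so they are not independent of each other. Groups did not overlap at 1, 8 and 9 of the 10 probe sets in R397W, A384T and WT over mock, where this held for 11.9%, 14.3% and 15.1% of all.

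**Figure D2:**
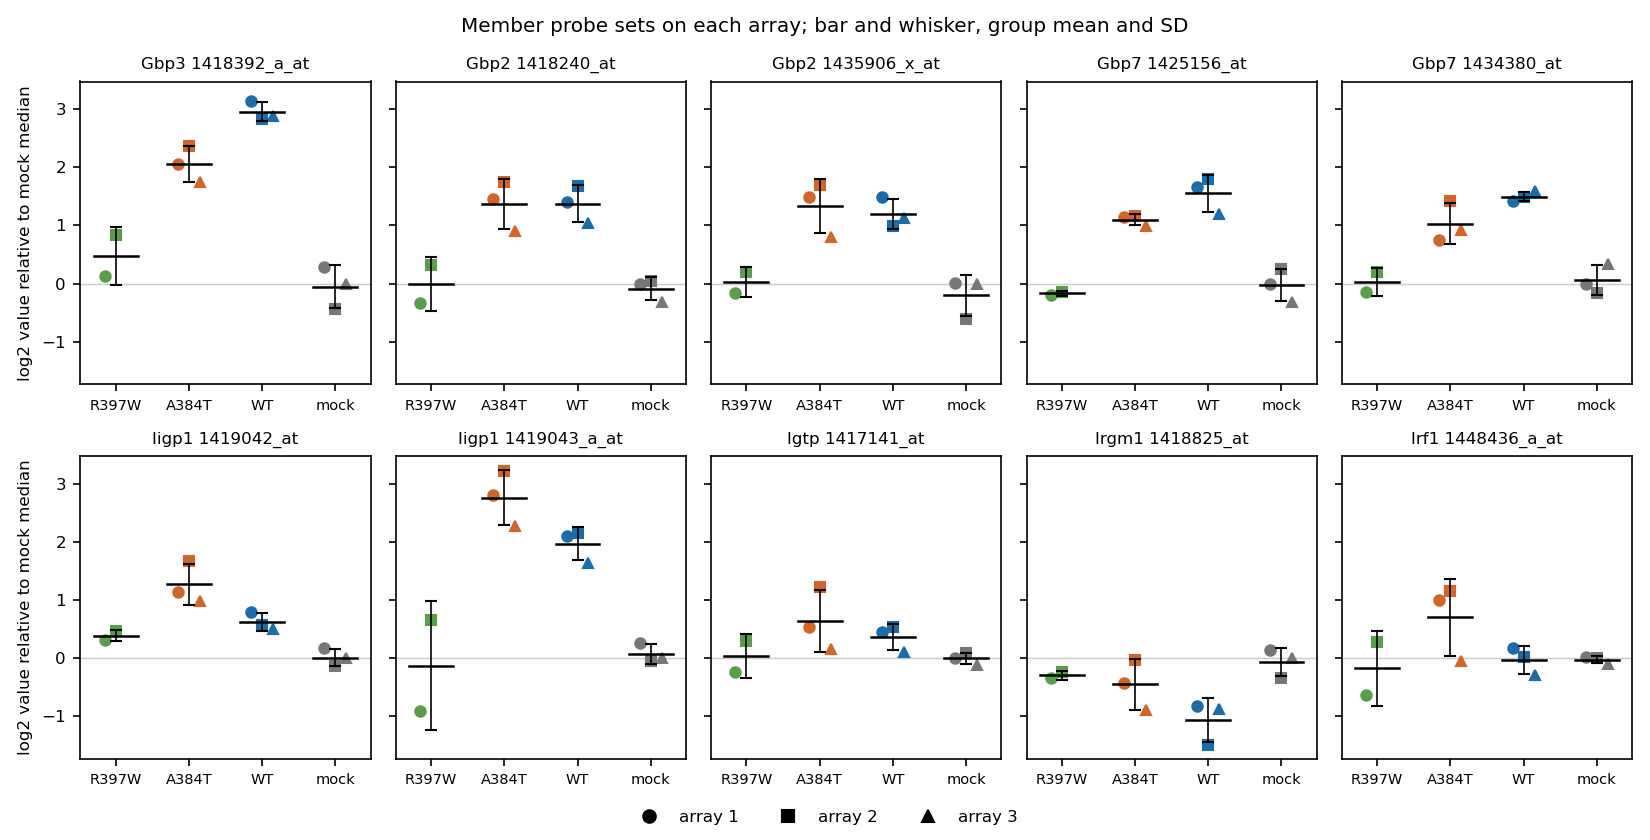
Value of each member probe set on each array, as log2 relative to the mock median (y axis), by group (x axis: R397W, A384T, WT, mock); the symbol gives the array number, the bar the group mean and the whisker the SD. The Gbp3, Gbp2 and Gbp7 values of A384T and WT arrays all lie above 0.7, and those of the R397W arrays overlap those of the mock arrays.

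Gbp3, a GBP of the chromosome 3 cluster, had the largest difference with WT among the members. Its values were 0.13 and 0.83 on the R397W arrays, 2.06, 2.36 and 1.74 on the A384T arrays, 3.14, 2.83 and 2.88 on the WT arrays, and 0.28, -0.44 and 0 on the mock arrays. All WT arrays stood above all A384T arrays, these stood above both R397W arrays, and the R397W arrays overlapped the mock range. The difference from mock was 2.11 ± 0.23 with A384T (adjusted p = 0.00119) and 3.005 ± 0.23 with WT (adjusted p = 0.000137). Both were called in all 11 fits that left out 1 array. With R397W the difference was 0.53 ± 0.26, with a 95% interval of -0.054 to 1.11. Quantile normalization ended the A384T call (1.67, adjusted p = 0.111). It was run on the centred values, whose SD was 0.18 to 0.27 on mock arrays, 0.35 to 0.47 on A384T arrays and 0.36 to 0.44 on WT arrays. Forcing 1 spread on all arrays alters differences by construction. A call lost in this setting, here or below, cannot be told apart from that change of spread.

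Gbp7, whose promoter carried both ISRE and GAS letters, had 2 probe sets with the same picture. At 1425156_at the values were -0.20 and -0.14 on R397W arrays, 1.14, 1.15 and 0.99 on A384T arrays, 1.66, 1.80 and 1.19 on WT arrays, and 0, 0.24 and -0.32 on mock arrays. At 1434380_at they were -0.15 and 0.19 on R397W arrays, 0.74, 1.42 and 0.91 on A384T arrays, 1.42, 1.48 and 1.58 on WT arrays, and 0, -0.17 and 0.34 on mock arrays. Neither A384T nor WT arrays overlapped the mock arrays at either probe set, and both R397W arrays lay inside the mock range. With A384T the differences from mock were 1.12 ± 0.17 (2.17-fold, adjusted p = 0.00816) and 0.97 ± 0.19 (1.95-fold, adjusted p = 0.0271). With WT they were 1.57 ± 0.17 (adjusted p = 0.00103) and 1.44 ± 0.19 (adjusted p = 0.00272). The A384T call at 1434380_at was lost without A384T array 2 (0.0732), A384T array 3 (0.0529), mock array 1 (0.0953) or mock array 2 (0.109). Quantile normalization ended the calls at 1434380_at with A384T (0.76, adjusted p = 0.231) and with WT (1.04, adjusted p = 0.058). Without the 4 arrays numbered 1, Gbp7 lost both A384T calls (0.156 and 0.123) and the WT call at 1425156_at (0.0511). A trended, robust prior in limma also ended both A384T calls (0.0633 and 0.128) and kept both WT calls. With R397W the 95% intervals of the difference were -0.58 to 0.29 and -0.51 to 0.43.

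Gbp2, which in mouse cells is known for its recruitment to Toxoplasma vacuoles, rose with both A384T and WT. At 1418240_at the values were -0.34 and 0.31 on R397W arrays, 1.45, 1.74 and 0.90 on A384T arrays, 1.41, 1.67 and 1.04 on WT arrays, and 0, 0.046 and -0.31 on mock arrays. At 1435906_x_at they were -0.16 and 0.20 on R397W arrays, 1.49, 1.70 and 0.80 on A384T arrays, 1.48, 0.98 and 1.12 on WT arrays, and 0.0021, -0.61 and 0 on mock arrays. The A384T and WT arrays were intermingled and all above the mock and R397W arrays. With A384T the differences from mock were 1.45 ± 0.25 (2.74-fold, adjusted p = 0.0135) and 1.54 ± 0.25 (2.90-fold, adjusted p = 0.0111). With WT they were 1.46 ± 0.25 (adjusted p = 0.0115) and 1.40 ± 0.25 (adjusted p = 0.016). The suffix x marks probes that can also match other transcripts, and GBP genes are relatives of each other, so this second probe set is less certain. Leaving out 1 array ended the A384T call at 1418240_at without A384T array 1 (0.0564), A384T array 2 (0.0574) or mock array 3 (0.0622), and at 1435906_x_at without A384T array 1 (0.0503). It ended the WT call at 1418240_at without WT array 2 (0.0571) or mock array 3 (0.0536), and at 1435906_x_at without WT array 1 (0.0705) or mock array 2 (0.0655). All 4 Gbp2 calls were lost without the 4 arrays numbered 1 (0.107 to 0.139), and the WT call at 1435906_x_at also under quantile normalization (1.204, adjusted p = 0.0558). The trended, robust prior ended the A384T call at 1418240_at (0.0518) and the WT call at 1435906_x_at (0.0507).

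Iigp1, an effector IRG that loads onto the vacuoles of intracellular parasites, was the member with the largest difference with A384T. At 1419043_a_at its values were -0.91 and 0.65 on R397W arrays, 2.80, 3.21 and 2.27 on A384T arrays, 2.11, 2.15 and 1.64 on WT arrays, and 0.27, -0.041 and 0 on mock arrays. At 1419042_at they were 0.32 and 0.46 on R397W arrays, 1.14, 1.67 and 0.99 on A384T arrays, 0.80, 0.57 and 0.49 on WT arrays, and 0.17, -0.14 and 0 on mock arrays. At both, all A384T arrays stood above all WT arrays, and these above the mock arrays. At 1419042_at no pair of the 4 groups overlapped, R397W included. With A384T the differences from mock were 2.68 ± 0.36 (6.42-fold, adjusted p = 0.00364) and 1.26 ± 0.17 (2.39-fold, adjusted p = 0.00399), and both were called in all 11 fits that left out 1 array. With WT they were 1.89 ± 0.36 (3.70-fold, adjusted p = 0.0214) and 0.61 ± 0.17 (adjusted p = 0.121, or 0.0398 in the blocked fit). Quantile normalization ended both calls at 1419043_a_at, with A384T (1.97, adjusted p = 0.0511) and with WT (1.33, adjusted p = 0.241). The trended, robust prior ended the WT call there (0.0572) and kept both A384T calls. At 1419042_at, dropping the 4 arrays numbered 1 ended the A384T call (1.40, adjusted p = 0.0524). The WT call at 1419043_a_at was lost without WT array 1 (0.0838), WT array 2 (0.0941), mock array 1 (0.0527), mock array 2 (0.0872) or mock array 3 (0.0796), and the difference at 1419042_at was called without A384T array 2 (0.0361). The R397W arrays were split at 1419043_a_at, 1 below and 1 above all mock arrays, and at 1419042_at both stood above the mock arrays with a difference of 0.38 ± 0.19 (adjusted p = 1).

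Igtp and Irgm1, both of the regulatory IRGM class, had no call in any comparison with mock in the fit without the array number. Igtp had -0.23 and 0.30 on R397W arrays, 0.54, 1.22 and 0.16 on A384T arrays, 0.45, 0.53 and 0.11 on WT arrays, and 0, 0.095 and -0.11 on mock arrays. All A384T and WT arrays were above the mock arrays, by small amounts on the arrays numbered 3. The difference from mock was 0.65 ± 0.25 with A384T (adjusted p = 0.311, or 0.0258 in the blocked fit) and 0.37 ± 0.25 with WT (adjusted p = 0.705). Irgm1 had -0.34 and -0.24 on R397W arrays, -0.42, -0.024 and -0.90 on A384T arrays, -0.82, -1.49 and -0.88 on WT arrays, and 0.14, -0.34 and 0 on mock arrays. All WT arrays were below all mock arrays, and the other groups overlapped them. The WT difference was -0.998 ± 0.24 with an adjusted p of 0.0625, which missed the threshold, and in the blocked fit the adjusted p was 0.0229. It also passed without A384T array 2 (0.0466) or A384T array 3 (0.0396). The differences with A384T and R397W were -0.38 ± 0.24 and -0.22 ± 0.27.

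Irf1, the transcription factor that drives GBP and IRG promoters downstream of interferon-gamma, had -0.63 and 0.28 on R397W arrays, 1.01, 1.15 and -0.055 on A384T arrays, 0.18, 0.01 and -0.29 on WT arrays, and 0.027, 0 and -0.099 on mock arrays. A384T arrays 1 and 2 stood above every other array, whereas A384T array 3 lay within the mock range. The difference from mock was 0.73 ± 0.31 with A384T (adjusted p = 0.404) and -0.01 ± 0.31 with WT (95% interval -0.71 to 0.69, adjusted p = 0.998). The WT interval leaves room for a change of Irf1 in either direction. Whether Irf1 had a part in the higher Gbp3, Gbp2 and Gbp7 values was not tested.

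**Figure D3:**
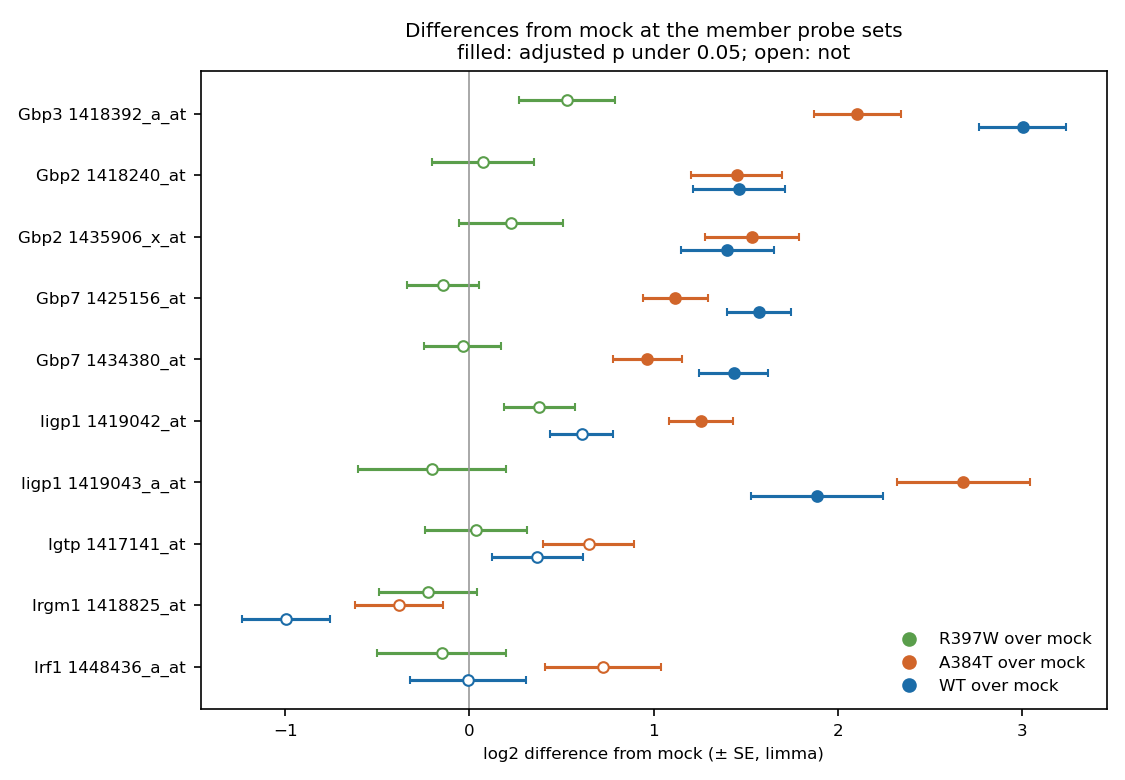
Difference from mock at each member probe set on the log2 scale (x axis), with its SE, for R397W, A384T and WT; filled points passed an adjusted p under 0.05. Filled points are all on the right of 0, the R397W points are all open, and Irgm1 with WT is the point farthest to the left at -0.998.

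A384T and WT were then set against each other. No member was called (0 of 10, against 0.102% of all probe sets), and 0 in the blocked fit (0.515% of all), with an unadjusted p under 0.05 at 6 of 10 members and at 1845 of all 45037. The members did not differ in 1 direction. A384T minus WT was -0.90 ± 0.23 for Gbp3 (95% interval -1.42 to -0.38, adjusted p = 0.493), and -0.45 ± 0.17 (-0.84 to -0.064) and -0.47 ± 0.19 (-0.89 to -0.050) for Gbp7. It was 0.65 ± 0.17 (0.26 to 1.03, adjusted p = 0.514) and 0.80 ± 0.36 (-0.0052 to 1.60) for Iigp1, 0.74 ± 0.31 (0.036 to 1.43) for Irf1 and 0.62 ± 0.24 (0.083 to 1.15) for Irgm1. Gbp2 differed by -0.01 (-0.56 to 0.54) and 0.14 (-0.43 to 0.70), and Igtp by 0.28 (-0.27 to 0.83). These intervals are not adjusted for the number of probe sets.

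Between arrays of the same number, A384T minus WT was -1.08, -0.47 and -1.14 for Gbp3 (arrays 1, 2 and 3) and -0.51, -0.64 and -0.20 for Gbp7 at 1425156_at. For Iigp1 it was 0.69, 1.07 and 0.63 at 1419043_a_at and 0.34, 1.10 and 0.50 at 1419042_at. Each of these kept its sign in all 3 pairs. This adds nothing to the lack of overlap given below, because groups that do not overlap keep the sign in every pair. The sign was also kept by Gbp7 at 1434380_at (-0.68, -0.060 and -0.67) and Igtp (0.095, 0.69 and 0.054), while Gbp2 changed sign at both probe sets. The share of all probe sets that kept their sign was not counted. For Irf1 A384T minus WT was 0.83, 1.14 and 0.24, and for Irgm1 it was 0.39, 1.47 and -0.016, so the third pair carried little of either. A384T and WT arrays did not overlap at 4 of 10 member probe sets, higher with A384T at both of Iigp1 and lower at Gbp3 and Gbp7 1425156_at, where 7.46% of all probe sets did not overlap.

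**Figure D4:**
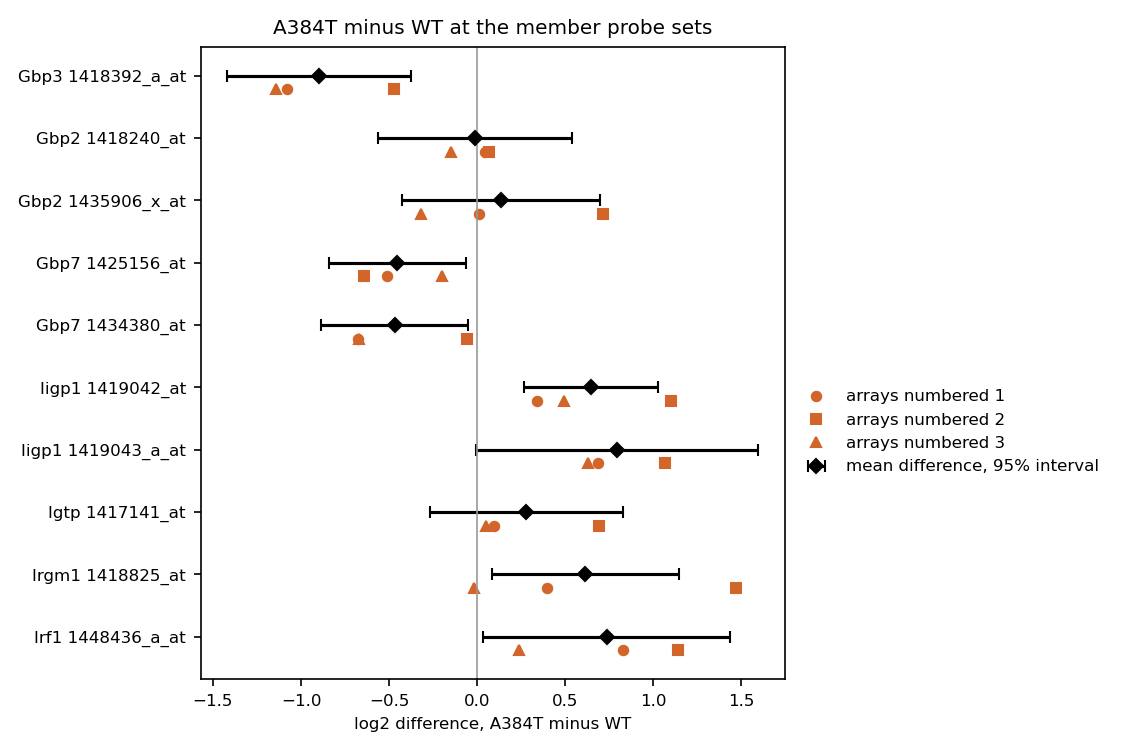
A384T minus WT at each member probe set on the log2 scale (x axis): the black diamond and bar give the mean difference and its 95% interval, and the orange symbols give the difference between arrays of the same number. Gbp3 and Gbp7 lie to the left of 0 and Iigp1, Irf1 and Irgm1 to the right, and none was called.

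R397W was lower than WT at 5 of 10 member probe sets and higher at 0, where 1.75% of all probe sets were called and 0.99% were called lower. The blocked fit called 6 lower, among 5.78% of all. R397W had no array 3, so in comparisons with it the block also changed the differences. Gbp3 was 5.56-fold lower (-2.48 ± 0.26, adjusted p = 0.00137), Iigp1 at 1419043_a_at 4.26-fold lower (-2.09 ± 0.40, adjusted p = 0.03), and Gbp7 3.29-fold and 2.78-fold lower (-1.72 ± 0.20, adjusted p = 0.00194, and -1.47 ± 0.21, adjusted p = 0.00644). Gbp2 at 1418240_at was 2.62-fold lower (-1.39 ± 0.28, adjusted p = 0.0359). Its second probe set was at -1.17 ± 0.28 (adjusted p = 0.0829), and at -1.24 in the blocked fit (adjusted p = 0.0238). Irgm1 was at 0.77 ± 0.27 (adjusted p = 0.289), Igtp at -0.33, Iigp1 at 1419042_at at -0.23, and Irf1 at -0.14. The groups did not overlap at 8 of 10 probe sets, against 23.3% of all. Gbp3 and Gbp7 at 1425156_at were called in all 11 fits that left out 1 array, while the Gbp2 call was kept without WT array 3, A384T array 2 or A384T array 3 and lost in the other 8 (up to 0.290, without R397W array 1). The Iigp1 call was lost in 6 of them, without any 1 WT array, R397W array 1 (0.181), mock array 2 or mock array 3. The call at Gbp7 1434380_at was lost without R397W array 1 (0.0868), and Gbp2 1435906_x_at was called without A384T array 3 (0.0393). Quantile normalization ended the calls at Gbp3 (-1.05, adjusted p = 0.621), Gbp2 1418240_at (-1.01, 0.174), Iigp1 1419043_a_at (-1.18, 0.518) and Gbp7 1434380_at (-1.10, 0.0965). It also changed the spread of the arrays, as said above, and the SD before it was 0.23 and 0.31 on the R397W arrays. A trended, robust prior in limma ended the calls at Gbp2 1418240_at (adjusted p = 0.102) and Iigp1 1419043_a_at (0.0767). Without the 4 arrays numbered 1, which leaves 1 R397W array, none of the 5 calls was left (adjusted p 0.0530 at Gbp3 to 0.485 at Gbp2 1418240_at).

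R397W was also lower than A384T at 5 of 10 member probe sets and higher at 0, where 1.47% of all were called and 0.853% were called lower. In the blocked fit, 9 were lower, among 5.7% of all. Iigp1 at 1419043_a_at was 7.39-fold lower (-2.88 ± 0.40, adjusted p = 0.00665), a call kept in all 11 fits that left out 1 array. Gbp3 was 2.98-fold lower (-1.58 ± 0.26, adjusted p = 0.0162), Gbp7 2.40-fold and 2.01-fold lower (adjusted p = 0.011 and 0.0497) and Gbp2 at 1418240_at 2.60-fold lower (adjusted p = 0.0415). The block changed the differences here too, and it added calls. Gbp2 1435906_x_at was at -1.31 without it (adjusted p = 0.0568) and -1.37 with it (0.0147). Iigp1 1419042_at was at -0.88 (0.0601) and -0.95 (0.012), in the same order. Igtp was at -0.61 (0.49) and -0.75 (0.031), and Irf1 at -0.88 (0.398) and -1.06 (0.0447). Irgm1 differed by 0.16 ± 0.27. The groups did not overlap at 7 of 10, against 22.7% of all. A trended, robust prior in limma kept the Iigp1 call at 1419043_a_at (adjusted p = 0.0277) and ended the other 4 (0.076 to 0.179). The Iigp1 difference was -2.11 without R397W array 1 and -3.66 without R397W array 2. Its call was lost under quantile normalization (-1.82, adjusted p = 0.149), without the 4 arrays numbered 1 (-2.09, 0.129) and when the fit held R397W and A384T alone (0.138). The other 4 calls were lost under quantile normalization (0.0723 to 0.966) and without the arrays numbered 1 (0.239 to 0.544), and they depended on single arrays. Gbp3 lost its call without A384T array 1 (0.0529), A384T array 2 (0.0599) or R397W array 1 (0.169), and Gbp7 1425156_at without R397W array 1 (0.106) or R397W array 2 (0.0887). Gbp2 1418240_at kept its call only without WT array 3 or A384T array 3 and lost it in 9 of 11 such fits (up to 0.320, without R397W array 1). Gbp7 1434380_at kept it only without A384T array 1 and lost it in 10 (up to 0.341, without R397W array 1). Without A384T array 3, Gbp2 1435906_x_at (0.0185) and Iigp1 1419042_at (0.0386) were called.

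Within the A384T and R397W groups, members tended to be high or low on the same arrays. A384T array 2 was the highest of the A384T arrays at all 10 member probe sets, against 27.4% of all probe sets, and A384T array 3 was the lowest at 9, against 30.1%. R397W array 2 was above R397W array 1 at all 10, against 47.0% of all probe sets. WT arrays 1, 2 and 3 were the highest of their group at 5, 4 and 1 members, and mock arrays 1, 2 and 3 at 6, 3 and 1, so no array led at all members there. Over all 11 arrays the pairwise Pearson r within the Gbp2, Gbp3 and Gbp7 probe sets lay between 0.83 and 0.95, and that of Iigp1 with them between 0.62 and 0.95. Irf1 had an r of 0.31 to 0.35 with Gbp3 and Gbp7, and Irgm1 had -0.74 to -0.38 with the 3 GBPs. As deviations from the group means, Irf1 had an r of 0.69 to 0.89 with Gbp2, Igtp and Iigp1, 0.72 with Gbp3, 0.33 and 0.42 with Gbp7 and 0.54 with Irgm1. Within the Gbp2, Gbp3 and Gbp7 probe sets this r ran between -0.37 and 0.89. These arrays share their groups and their array numbers, so the correlations are a description of 11 points. Whether probes that match more than 1 GBP gene add to the r values among GBPs was not tested.

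By the same measure over 11 arrays, the genes outside the 8 whose pattern was most like that of Gbp3 were Npc2 (0.982), Gbp2b (0.981), Snap23 (0.980), Zfp608 (0.979) and Etf1 (0.975). These are the highest r values among all genes, and r does not measure size. WT minus mock was 0.44 at Npc2, 3.54 at Gbp2b, 1.68 at Snap23, 2.57 at Zfp608 and 0.46 at Etf1, against 3.005 at Gbp3. The genes most like Irgm1 were Ttc7b (0.974), Dyrk2 (0.936), Dop1b (0.933), Mfsd13a (0.923) and Dzip1 (0.918).

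The other genes of the pathway were taken from lists of relatives, ligand and receptors, factors, inhibitors and targets, each gene by its probe set with the largest SD over the arrays. Chosen in this way, 2.96% of all 18193 genes were called in A384T over mock (1.69% higher, 1.26% lower) and 3.53% in WT over mock (1.94% higher, 1.59% lower). In the blocked fit these shares were 9.86% (5.28% higher, 4.58% lower) and 10% (5.25% higher, 4.78% lower). With lists this short, a count of 0 or 1 is near that background. Of 16 further GBP and IRG genes 8 were measured, and 1 was called in A384T over mock (4 in the blocked fit) and 1 in WT over mock (2 with it), with medians of 0.43 and 0.13. That gene was Gbp2b, formerly Gbp1, which lies between Gbp3 and Gbp2. Gbp2b had 0.17 and 0.79 on R397W arrays, 3.06, 3.13 and 2.61 on A384T arrays, 3.75, 3.88 and 3.24 on WT arrays, and 0.25, -0.0067 and 0 on mock arrays. The A384T and WT arrays were far above the mock arrays and the R397W arrays overlapped these. It was 7.23-fold higher with A384T (2.85 ± 0.22, adjusted p = 0.000166) and 11.6-fold higher with WT (3.54 ± 0.22, adjusted p = 3.58e-05), and 8.82-fold lower with R397W than with WT (adjusted p = 0.000217). Gbp6 had -0.54 and 0.33 on R397W arrays, -0.053, 1.57 and -0.40 on A384T arrays, -0.81, -1.56 and -1.23 on WT arrays, and 0.088, -0.016 and 0 on mock arrays. Its difference from mock was 0.35 with A384T (adjusted p = 0.872), where array 2 alone was above the mock arrays, and -1.22 ± 0.44 with WT (adjusted p = 0.27).

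Of the interferon-gamma ligand, its receptor and its kinases, 0 of 5 were called in any comparison with mock. Ifng itself differed from mock by -0.03 with R397W, -0.11 with A384T and -0.21 ± 0.12 with WT (adjusted p = 0.641). In the blocked fit, 2 of the 5 were higher and 1 lower in WT over mock, namely Ifngr1 (0.60, adjusted p = 0.00959), Ifngr2 (0.65, 0.00766) and Jak2 (-0.49, 0.0202). The type I interferon receptors and their kinase had 0 of 3 called.

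Among 11 measured STAT and IRF factors, 1 was higher and 1 lower in WT over mock (2 and 2 in the blocked fit), and 0 and 1 in A384T over mock. Irf7, which amplifies type I interferon responses, fell with both: its values were -0.58 and -0.32 on R397W arrays, -0.66, -0.84 and -0.59 on A384T arrays, -1.74, -1.40 and -1.82 on WT arrays and -0.0028, 0.26 and 0 on mock arrays. No groups overlapped, and both R397W arrays were below every mock array. The difference from mock was -0.53 ± 0.16 with R397W (adjusted p = 1). With A384T and WT the differences from mock were -0.78 ± 0.14 (adjusted p = 0.0174) and -1.74 ± 0.14 (adjusted p = 0.000156), and A384T was higher than WT by 0.96 ± 0.14 (adjusted p = 0.0436). Irf5 rose with WT (1.22 ± 0.26, adjusted p = 0.0406). Irf8 was at 1.07 ± 0.34 with A384T (adjusted p = 0.185, or 0.00377 in the blocked fit) and at 0.09 with WT.

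Inhibitors of this signalling had the highest median of the lists in both comparisons. Of 8 measured, 3 were higher and 0 lower both in A384T over mock and in WT over mock, with medians of 1.27 and 1.24, and with the block 4 were higher in each. Socs2 rose 10.8-fold with A384T and 14.4-fold with WT (adjusted p = 0.0017 and 0.000781), and Cish rose 6.08-fold and 8.03-fold (0.000125 and 4.56e-05). Socs3 rose 4.01-fold and 4.02-fold (0.00197 and 0.00167). Socs2, Cish and Socs3 are inhibitors of cytokine receptors that signal through STAT5 or STAT3. Socs1, the inhibitor of interferon-gamma signalling proper, was 2.31 ± 0.61 above mock with WT (adjusted p = 0.0975, or 6.79e-06 in the blocked fit) and 2.03 ± 0.61 above it with A384T (0.162, or 1.77e-05).

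Further targets of interferons moved in both directions. Of 13 antigen presentation genes measured, 2 were higher in A384T over mock and 1 in WT over mock, with 0 lower. Cd274, the checkpoint ligand PD-L1, was higher in both (2.01 ± 0.33, adjusted p = 0.0111, with A384T and 1.99 ± 0.33, 0.0104, with WT), and the peptide transporter gene Tap2 with A384T (0.62 ± 0.12, 0.0305). Of 4 chemokines, Ccl5 was lower in WT over mock (-0.57 ± 0.11, adjusted p = 0.0285). Of 21 antiviral genes measured, 2 were lower in A384T over mock and 6 in WT over mock, with 0 higher and medians of -0.070 and -0.42 against -0.0067 and -0.013 over all probe sets. In the blocked fit, 3 were higher and 6 lower with A384T, and 0 higher and 9 lower with WT. With WT, Rtp4 fell by 2.28 (± 0.21, adjusted p = 0.000342), Ifit1 by 2.07 (± 0.28, adjusted p = 0.0033) and Oas3 by 1.86 (± 0.24, adjusted p = 0.00231) on the log2 scale. Rtp4 was the antiviral gene that was higher with A384T than with WT by the test (1.48 ± 0.21, adjusted p = 0.037). Of 12 genes for partners of GBPs and IRGs in autophagy and inflammasomes, 0 were called in either comparison (3 with A384T and 1 with WT in the blocked fit, beside 9.86% and 10% of all genes). In R397W over mock 0 genes of these lists were called, and 0 of all probe sets. The antiviral list there had a median of -0.21. Rtp4 had -1.33 and -0.81 on the R397W arrays and Ifit1 had -1.46 and -1.22, all below every mock array. Their differences from mock were -1.15 ± 0.23 and -1.10 ± 0.31 (adjusted p = 1 for both).

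**Figure D5:**
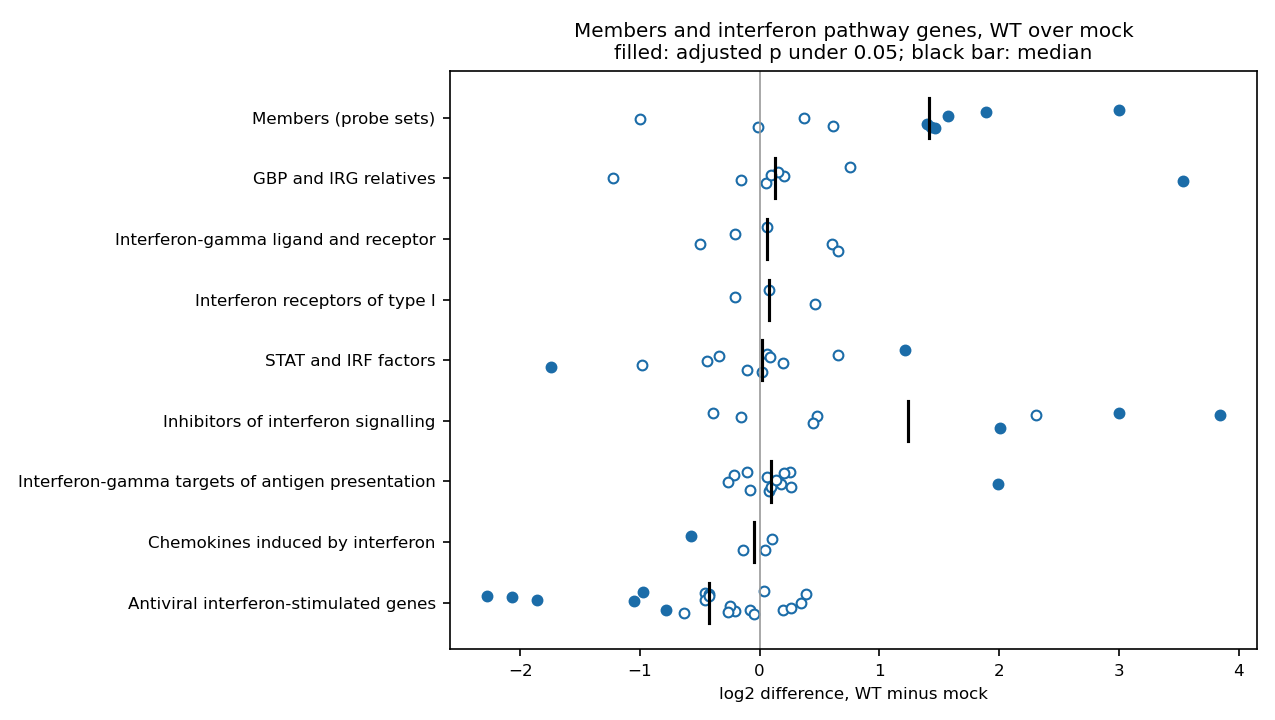
WT minus mock on the log2 scale (x axis) for the 10 member probe sets and for the genes of 8 pathway lists (y axis); filled points passed an adjusted p under 0.05 and the black bar is the median. The members' median is 1.42 and that of the antiviral genes -0.42, with Gbp2b at 3.54 as the called point among the relatives.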

How the data were processed

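The deposited log2 values are RMA values, per the submitters' processing notes (version not given). RMA is a background correction, a quantile normalization and a summary of probes into probe sets. The log2 base is taken from RMA. In the deposited table the mock median was 0 at all 45101 probe sets, so each had been centred on the mock arrays, a step not stated in the sources used here. Groups came from the sample titles. After 64 control probe sets were left out, 45037 were fitted in limma 3.58.1 (R 4.3.3) with 1 mean per group over all 11 arrays and eBayes (7 residual degrees of freedom), with Benjamini-Hochberg adjustment per comparison and calls at 0.05. The median SE was 0.139 between groups of 3 arrays and 0.155 with R397W; the number of arrays limits the precision. The same steps were run on simulated data with independent noise on each array. Those data held no effect of the array number, so that run does not cover linked arrays such as these. Promoter windows were searched in Python 3.11.15 with pandas 2.3.3, and matplotlib 3.10.9 drew the figures.

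Arrays of different groups share numbers in the titles. All 15 same-number pairs had correlated deviations from group means (r 0.107 to 0.718, other pairs -0.70 to 0.34), and 11 of 11 arrays correlated best with their own number, so the fit with the number as a block is given where it changes a call.

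Members, the 13 gene lists and the tests were chosen with earlier results of these data known. Named genes were the members, Foxp3, per list and comparison up to 3 called genes with the largest change (or 1 where none was called), and the 5 genes most like the members with the largest rise and the largest fall; Ifng, Ifngr1, Jak2, Irf8 and Socs1 were named after their values were seen. All 10 members' gene identifiers matched RefSeq with the same symbol. Of all tested probe sets, 932 had several symbols and 9160 none listed.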

Additional observations from a re-analysis of the deposited data

How the results depend on the processing

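Differences kept their sign under all alternatives wherever they were called, with 0 reversed calls, and of 1164 values compared, called or not, 30 uncalled ones changed sign. Counts of called probe sets are given as those over the whole table, then the members where these moved by over 1.5 times. With the array number as a replicate block, WT over mock had 3438 (1198 without it), A384T over mock 3303 (976), A384T over WT 232 (46), R397W over WT 2603 (788) and R397W over A384T 2568 (661, members 9); beside the calls named above, the block changed no other member call. With a trended, robust prior these were 446, 329 (members 4), 22, 255 (members 3) and 212 (members 1). With only the 2 groups in the fit, A384T over mock had 554, A384T over WT 2, R397W over WT 329 (members 3) and R397W over A384T 118 (members 1). Without the 4 arrays numbered 1 there were 535 (members 3) in WT over mock, 367 (members 2) in A384T over mock, 2 in A384T over WT, 181 (members 0) in R397W over WT and 97 (members 0) in R397W over A384T, with fewer arrays by construction. Quantile normalization, which forces the same spread on every array, gave 478 (members 3), 443 (members 4), 4, 278 (members 1) and 281 (members 0). With 1 probe set per gene there were 659, 577, 459 (R397W over WT) and 413 (R397W over A384T) of fewer features, and 4 member genes in A384T over mock, as with the mean of a gene's probe sets. The cause of the other changes was not tested.

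Leaving out 1 array at a time gave 684 to 1218 in WT over mock (members 4 to 8), 597 to 927 in A384T over mock (5 to 7), 12 to 29 in A384T over WT (0 to 0), 252 to 795 in R397W over WT (2 to 6), 197 to 629 in R397W over A384T (1 to 6) and 0 to 0 in R397W over mock. Subtracting array medians and testing only probe sets with 1 symbol kept all counts within 1.5 times. A filter on dim probe sets and another background correction could not be run on centred values.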
